A study of Mus musculus with 2 samples.

Results

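Mrc1-low C1q tumour macrophages were chosen by their own counts: at least 10 unique molecular identifiers (UMIs) of C1qa, C1qb and C1qc together, fewer than 2 of Mrc1, at most 1 of Cd3d, Cd3e and Cd3g and none of Xcr1 and Clec9a. A limit of 200 genes or more and of 20% mitochondrial UMIs or less held for all cells. The rule found 114 cells among 15259 kept cells, 48 from wt and 66 from the library labelled Lcn2-ko. Cells that met every other limit but held 2 or more Mrc1 UMIs, 101 in each library, are called Mrc1-positive C1q cells here and serve as the comparison. The measured C1q, Mrc1, Cd3, Xcr1 and Clec9a values chose the cells, so the levels of those genes are descriptions only.

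The cells came from tumours of MB49, a bladder cancer line of the mouse, and were the live CD45+ fraction after warm digestion with collagenases, dispase and DNase, run on the BD Rhapsody system. The hosts were lethally irradiated female mice given male marrow, wild type for the library labelled wt and Lcn2-KO for the library labelled Lcn2-ko. This follows the description of the chimeras, while the sex label reads female and the protocol text also mentions mice of both sexes. Such chimeras keep host cells that survive irradiation, and the sources used here do not give the number of animals behind a library, their age or the part of Lcn2 that was deleted. The series was set up to ask what Lcn2, a secreted lipocalin that binds bacterial siderophores, does in tumour neutrophils.

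C1q is the recognition unit of the classical complement pathway. Tissue and tumour macrophages make it themselves, and it helps them bind dying cells. The mannose receptor encoded by Mrc1 takes up glycoproteins and collagen and is high in resident and alternatively activated macrophages. Interferons, in turn, switch on antiviral and antigen-presenting genes in macrophages, a state often seen in tumours.

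Both libraries were of like depth, with medians of 3727 and 3700 UMIs per kept cell in wt and Lcn2-ko. The values behind Mrc1-low cells were 323171 and 359256 UMIs in all, and levels are given as CPM, UMIs scaled to a sum of 1000000. Lcn2 gave 704 UMIs over kept wt cells and 633 UMIs over kept Lcn2-ko cells, or 16.9 and 15.6 CPM, so over all cells it did not separate the labels. A 3′ tag outside the deleted part would still be counted, so these counts do not check the label. In Mrc1-low cells it gave 11 UMIs in 7 wt cells and 1 UMI in 1 Lcn2-ko cell. A Y-linked UMI without Xist, the type of the male marrow, was held by 32 of 48 and 33 of 66 Mrc1-low cells, and Xist without a Y-linked UMI by 0 and 1, with the rest holding neither. The libraries shared 4 cell barcodes, none of them in an Mrc1-low cell. There was 1 library per label, so nothing was tested, and every 95% interval covers counting error only, not the spread between cells or animals.

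Macrophage markers that the rule did not use were high in these cells. Leaving out the C1q genes, 11 macrophage markers were all found in Mrc1-low cells of both libraries, and their summed level was 8178 CPM in wt and 9386 CPM in Lcn2-ko, against 788 and 861 CPM in the 7244 and 7068 kept cells with fewer than 10 C1q UMIs. Csf1r, the receptor that macrophages need to survive, was found in 97.9% of wt and 87.9% of Lcn2-ko Mrc1-low cells, and in 3.87% and 4.80% of T cells, which here and below are cells with 3 or more Cd3 UMIs and no C1q UMI. After thinning every cell to 2000 UMIs these shares were 63% and 76.8% of Mrc1-low cells against 2.23% and 3.01% of T cells. Apoe, a lipid carrier, stood at 736 and 793 CPM in wt and Lcn2-ko Mrc1-low cells and at 1662 and 1539 CPM in Mrc1-positive cells. Mmp12, macrophage elastase, stood at 1089 and 1175 CPM against 702 and 1186 CPM, so it was above Mrc1-positive cells in wt and level with them in Lcn2-ko. It was also uneven: 31 of 48 and 38 of 66 cells held any, and the top 5 cells held 56.8% and 53.3% of its UMIs.

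Markers of other cell types were present at lower summed levels than macrophage markers. Leaving out the Cd3 genes, which the rule limited, 15 T and NK cell markers summed to 433 and 404 CPM in wt and Lcn2-ko Mrc1-low cells, against 2858 and 3923 CPM in the kept cells with fewer than 10 C1q UMIs, and 7 of 8 B cell markers were at 0 in each library. Of 8 markers of conventional type 1 dendritic cells, Xcr1 and Clec9a were at 0 by the rule and Snx22 was at 0 as well. The 10 markers of conventional type 2 dendritic cells summed to 1461 CPM in wt and 1447 CPM in Lcn2-ko, above the 409 and 420 CPM of the kept cells under the C1q limit. The 12 neutrophil markers summed to 3902 and 2789 CPM, above the 1182 and 850 CPM of those cells. Among them S100a8 stood at 579 and 212 CPM and S100a9 at 656 and 295 CPM, while Ly6g, a surface antigen of neutrophils that is low in all cells here, gave 1 UMI in wt and 0 in Lcn2-ko. The 18 tumour and stromal markers summed to 641 and 387 CPM, with 6 and 8 of them at 0. Haemoglobin genes gave 1 UMI in all at most.

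Mrc1-low cells made up 0.622% of kept wt cells (exact Clopper-Pearson interval 0.459 to 0.824%) and 0.875% of kept Lcn2-ko cells (0.677 to 1.11%). The difference of 0.252 percentage points had a Newcombe interval of -0.0227 to 0.534, so it was not resolved at this number of cells. Among C1q cells they were 32.2% and 39.5%, a difference of 7.31 points (-3.29 to 17.6). No Mrc1 UMI at all was found in 25 of 48 and 40 of 66 of them, and the others held 1. Mrc1-low cells were shallower than Mrc1-positive ones, with medians of 5834 and 5219 against 7782 and 7914 UMIs, and held less C1q, with medians of 23 and 18 against 40 and 44 UMIs. With every C1q cell thinned to 2000 UMIs before the Mrc1 limit, 75.9% of wt and 73.9% of Lcn2-ko C1q cells counted as Mrc1-low, so the share depends on the depth at which the Mrc1 limit is read.

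**Figure D1:**
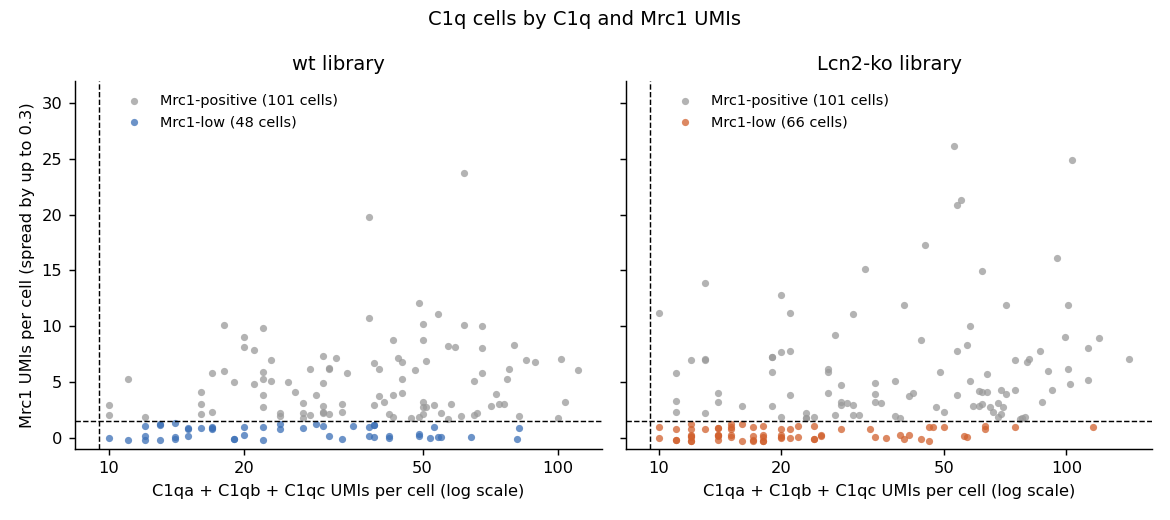
Each point is 1 C1q cell, with its C1qa, C1qb and C1qc UMIs on a log axis and its Mrc1 UMIs on a linear axis spread by up to 0.3, in the wt library (left) and the library labelled Lcn2-ko (right). Dashed lines mark the limits of the rule; the 48 and 66 Mrc1-low cells lie under the horizontal line, against a continuous spread of Mrc1 in the 101 and 101 Mrc1-positive cells above it.

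The limits cut through a continuous range of counts. Cells with 1 Mrc1 UMI, 23 in wt and 26 in Lcn2-ko, had Apoe at 967 and 1073 CPM, and cells with 2 Mrc1 UMIs, 25 and 19, had it at 1757 and 1266 CPM. Csf1r was 668 and 717 CPM just inside and 685 and 901 CPM just outside that limit. The 5 and 12 cells with 10 to 12 C1q UMIs had Csf1r at 631 and 883 CPM, and the 15 and 18 cells with 7 to 9 C1q UMIs had 333 and 677 CPM.

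The most abundant messages in Mrc1-low cells included those of antigen presentation and inflammation. H2-Ab1, a chain of MHC class II, was at 9045 CPM (wt) and 9369 CPM (Lcn2-ko), and Cd74, the invariant chain that guides class II to the endosome, at 7194 and 7070 CPM. Il1b, the precursor of interleukin-1 beta, stood at 7123 and 8504 CPM, above the 5419 and 6106 CPM of Mrc1-positive cells. Cxcl2, which draws neutrophils, stood at 6996 and 6803 CPM, and Ptgs2, the inducible cyclooxygenase, at 2092 and 2806 CPM. Ferritin heavy chain (Fth1) and the lysosomal proteins Psap and Ctss were also among the 20 most abundant genes, at 13890.5, 8605 and 4100 CPM in wt. With each cell thinned to 2000 UMIs, Il1b was found in 93.5% and 94.6% of Mrc1-low cells, against 12% and 13.1% of T cells without C1q. Before thinning it was found in 45 of 48 and 57 of 66.

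Against Mrc1-positive cells, Mrc1-low cells held more interferon-stimulated messages and less of the resident macrophage programme, in both libraries. Measured genes, those reaching 20 CPM in one or other population in both libraries, numbered 5790. In Mrc1-low cells of both libraries 144 of them (2.49%) were higher by 1.5-fold or more and 279 (4.82%) lower by as much. With both counting intervals clear of no difference, 46 (0.794%) were higher and 66 (1.14%) lower. The medians over all these genes were -0.04 on the log2 scale in wt and -0.03 in Lcn2-ko. The 2 populations come from the same libraries and differ by the Mrc1 count that chose them, so these ratios are descriptions.

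Among the lists examined, type I interferon response genes had the most higher members. Of 30 measured, 11 were at least 1.5-fold higher in both libraries and none lower, with medians of 0.47 and 1.07 on the log2 scale. Both intervals were clear of no difference for 6 of the 11. Rsad2, the antiviral enzyme viperin, stood at 554 CPM in wt Mrc1-low cells against 315 CPM in wt Mrc1-positive cells, and at 526 against 185 CPM in Lcn2-ko (log2 0.81 and 1.51). Ifit1, which binds viral RNA caps, stood at 124 against 62.1 CPM and at 66.8 against 16.2 CPM (log2 1.00 and 2.04). Its neighbour Ifit3, which partners Ifit1, stood at 71.2 against 27.9 CPM and at 55.7 against 20.9 CPM (log2 1.35 and 1.41), with a near copy, Ifit3b, that can share its reads. Isg20, an RNA exonuclease, rested on 17 and 20 UMIs (log2 1.68 and 1.34). Phf11d, Ifit2, Rtp4, Dhx58, Stat2, Phf11b and Trim30d made up the rest of the 11, on 10 to 34 UMIs a library. Not every cell carried these messages: Ifit3 was found in 11 of 48 and 11 of 66 cells, and Rsad2 in 24 and 30. After thinning Rsad2 was found in 28.3% and 35.7%, against 25.3% and 16.5% of Mrc1-positive cells and 3.82% and 4.03% of T cells. In wt the share of cells with Rsad2 was thus near that of Mrc1-positive cells. The top 5 Mrc1-low cells held 66.5% and 70.9% of its UMIs, and the top 5 Mrc1-positive cells 38.2% and 56.6%.

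The promoters of 3 of these genes are shown because the interferon-activated factor complex ISGF3 reads a short repeated element there. The sequences are the 250 bases before the RefSeq start in GRCm38.p6, written 5′ to 3′ on the gene's own strand, and capitals mark a match to the element's core, GAAA and GAAA with any 2 bases between, or TTTC and TTTC so spaced on the other strand.
Ifit1: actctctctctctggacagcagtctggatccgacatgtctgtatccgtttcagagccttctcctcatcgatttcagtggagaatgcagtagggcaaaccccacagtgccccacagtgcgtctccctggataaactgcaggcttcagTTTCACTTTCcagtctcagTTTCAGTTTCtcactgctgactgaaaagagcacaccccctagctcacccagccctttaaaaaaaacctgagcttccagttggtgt
Ifit3: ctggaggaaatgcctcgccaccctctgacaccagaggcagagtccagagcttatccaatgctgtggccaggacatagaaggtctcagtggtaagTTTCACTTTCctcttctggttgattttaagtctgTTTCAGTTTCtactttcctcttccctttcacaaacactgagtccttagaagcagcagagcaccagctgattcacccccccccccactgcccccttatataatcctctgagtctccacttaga
Rsad2: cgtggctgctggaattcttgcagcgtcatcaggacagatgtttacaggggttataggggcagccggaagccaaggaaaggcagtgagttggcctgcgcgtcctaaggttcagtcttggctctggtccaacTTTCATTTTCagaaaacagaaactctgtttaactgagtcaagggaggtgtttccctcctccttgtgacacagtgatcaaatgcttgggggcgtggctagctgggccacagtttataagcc
These windows were chr19:34640639-34640888 (plus strand) for Ifit1, chr19:34583279-34583528 (plus) for Ifit3 and chr12:26456453-26456702 (minus) for Rsad2. Matches began 104 and 85 bases before the start of Ifit1, 156 and 122 bases before that of Ifit3, and 120 bases before that of Rsad2. Of 27025 genes with a promoter window of that length in the table, 936 (3.46%) held a match, and of the 24 measured type I interferon genes with a window, 12 (50%) did. Among the 11 genes higher in Mrc1-low cells, 9 had a window and 6 of these held a match: Ifit1, Ifit3, Rsad2, Stat2, Phf11b and Trim30d. The windows of Ifit2, Isg20 and Phf11d held none. A match is a match of letters and was not tested as a binding site.

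Interferon gamma response genes were shifted the same way but less far. Of 27 measured, 8 were at least 1.5-fold higher in both libraries and none lower, with medians of 0.22 in wt and 0.55 in Lcn2-ko. Gbp2, a GTPase that attacks the vacuoles of intracellular microbes, stood at 313 against 138 CPM in wt and at 384 against 215 CPM in Lcn2-ko (log2 1.18 and 0.84). Cxcl9, which draws activated T cells, stood at 647 against 388 CPM and at 891 against 556 CPM (log2 0.74 and 0.68). Irf8, a factor that shapes monocyte and dendritic cell fate, had log2 ratios of 0.63 and 0.81. Gbp3, Gbp4, Irgm1, Socs1 and Acod1 were the others. Cxcl10 did not follow: it was lower than in Mrc1-positive cells in wt (904 against 1273 CPM) and near them in Lcn2-ko (509 against 448 CPM).

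Neutrophil markers moved with this result. Of 9 measured, 2, Il1r2 and Acod1, were at least 1.5-fold higher in both libraries and none lower, with medians of 0.43 and 0.91, and their part in the result was not tested. Over cells thinned to 2000 UMIs, the summed type I interferon and neutrophil lists had Spearman correlations of 0.34 (46 wt cells) and 0.35 (56 Lcn2-ko cells), given as a description of cells that share a library. Without the 18 wt and 13 Lcn2-ko Mrc1-low cells that held 3 or more UMIs of S100a8, S100a9 and Retnlg, and the like Mrc1-positive cells, 6 of 27 type I interferon genes and 6 of 27 interferon gamma genes were still higher in both libraries. Of all 5981 genes measured in that setting, 231 were higher in both libraries. There Ifit1 was at 1.14 and 1.68 and Ifit3 at 1.36 and 0.94 on the log2 scale, while Isg20 was at 0.77 and 0.26. Among genes of 100 CPM or more, 1 type I interferon gene was counted as higher, against 24 of all 1735 genes. A stricter setting dropped every cell with 3 or more UMIs of neutrophil, T and NK, B or tumour and stromal markers, which left 8 wt and 18 Lcn2-ko Mrc1-low cells. There 3 of 19 type I and 6 of 22 interferon gamma genes were higher in both libraries and none lower, against 520 of all 4843 genes (10.7%) higher, so the type I count was near that of all genes. In that setting Ifit3 turned to -1.09 in Lcn2-ko.

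Genes of resident and alternatively activated macrophages were lower. Leaving out Mrc1 itself, which the rule used, 16 were measured, 8 were at least 1.5-fold lower in both libraries and none higher, with medians of -0.89 and -1.01. Selenop, a selenium carrier protein, stood at 805 CPM in wt Mrc1-low cells against 2506 CPM in Mrc1-positive cells, and at 788 against 2501 CPM in Lcn2-ko (log2 -1.64 and -1.67). Maf, a transcription factor of mature macrophages, stood at 198 against 470 CPM and at 125 against 478 CPM (log2 -1.25 and -1.93). The Fc receptor-like gene Fcrls had log2 ratios of -1.60 and -1.45. F13a1, the transglutaminase subunit of clotting factor XIII, gave 4 UMIs in wt and 0 in Lcn2-ko Mrc1-low cells, against 53.2 and 85.9 CPM in Mrc1-positive cells. The monocyte-drawing chemokine Ccl8 (log2 -0.98 and -1.74) and the platelet factor 4 gene Pf4 (-1.03 and -1.86) were lower too, as were Ccl24 and, on 11 and 3 UMIs, Igf1. Without the S100a8, S100a9 and Retnlg cells, Selenop was at -1.87 and -1.82, and in the 8 and 18 cells with few markers of any other type it was at -0.88 and -1.76. In those cells 3 of 16 resident genes were lower in both libraries, against 5.04% of all genes. In wt Maf was at -0.02, Fcrls at -0.10 and F13a1 at -0.10. These 3 ratios rest on 8 cells, and that of F13a1 on 4 UMIs at most or on the floor of 3 counts. They do not show that the difference was lost.

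Lower genes outside that list included the fractalkine receptor Cx3cr1 (183 against 462 CPM in wt, 128 against 306 CPM in Lcn2-ko, log2 -1.34 and -1.26), the cyclooxygenase Ptgs1 (-1.24 and -1.62) and the secreted protein gene Olfml3 (-1.61 and -1.41). In the 8 wt cells with few markers of any other type Ptgs1 was at 0.49. Apoe and Trem2, a lipid receptor of tumour macrophages, were the 2 of 19 measured lipid-associated genes that were lower in both libraries, at -1.17 and -0.96 for Apoe and -1.52 and -0.65 for Trem2. Lyz2 and Adgre1, markers of mature macrophages, were lower as well. The efferocytosis genes Stab1 and Itgb5 were lower among 16 measured, and none was higher. Ube2c, a mitotic ubiquitin enzyme, had 15 and 17 UMIs and ratios of -1.69 and -1.38, the second turning to 1.08 in those 18 cells. No gene of MHC class II presentation among 12 measured was past 1.5-fold in either direction in both libraries, and the same was true of 20 heat shock chaperones, 28 hypoxia genes and 9 Fc receptors.

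**Figure D2:**
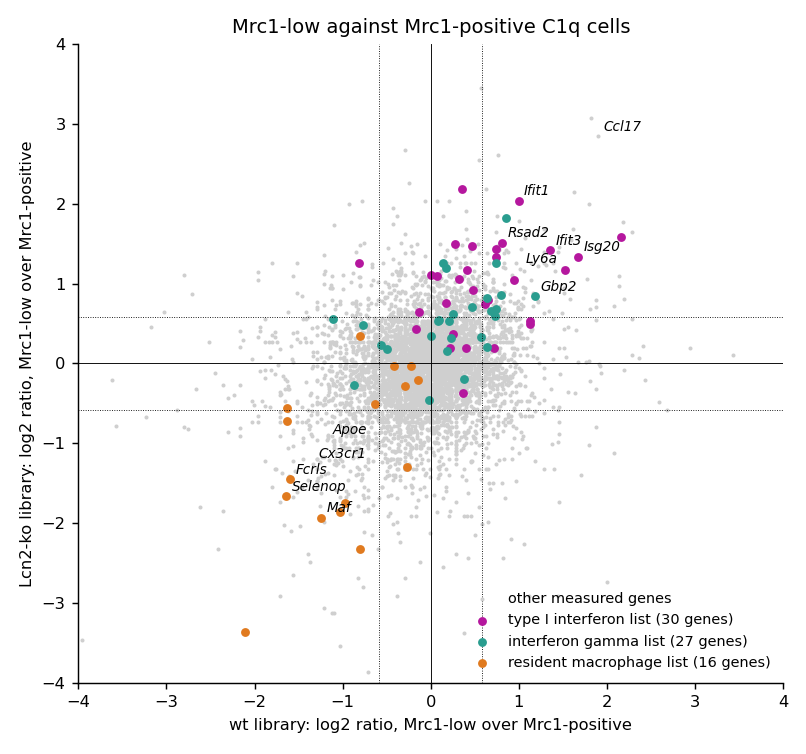
Each point is 1 gene with at least 20 CPM in one or other population in both libraries, with the log2 ratio of Mrc1-low over Mrc1-positive C1q cells in the wt library (horizontal) and in the library labelled Lcn2-ko (vertical); dotted lines mark 1.5-fold. Type I interferon genes (30) lie mainly up and right, with 11 past both lines, interferon gamma genes (27) less so, with 8, and resident macrophage genes (16) down and left, with 8 past both lines.

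Ccl17, which draws cells with the receptor Ccr4, had the highest ratio of the genes open to naming, at 650 CPM (wt) and 501 CPM (Lcn2-ko) against 175 and 69.6 CPM in Mrc1-positive cells (log2 1.89 and 2.85). It was found in 15 of 48 and 12 of 66 cells, and the top 5 of them held 83.3% and 93.3% of its UMIs. Ccr7, the homing receptor of mature dendritic cells, came next, with 34 and 24 UMIs in 8 and 7 cells (log2 1.62 and 2.15). After thinning 8.70% and 5.36% of Mrc1-low cells held Ccr7, under the 15.9% and 17.8% of T cells, which express it themselves. In wt, 7 of the 15 cells with Ccl17 also held Ccr7, and in Lcn2-ko 2 of 12 did. The 9 mature dendritic cell markers summed to 919 CPM in wt and 721 CPM in Lcn2-ko Mrc1-low cells, against 648 and 484 CPM in Mrc1-positive cells. Fscn1, a defining gene of mature dendritic cells, gave 20 UMIs in 2 wt cells and 2 UMIs in 2 Lcn2-ko cells. The part of such cells in the Ccl17 and Ccr7 ratios was not tested. In the 8 and 18 cells with few markers of any other type, Ccl17 was at -1.44 in wt and 4.28 in Lcn2-ko.

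Other higher genes had broader roles. Ly6a, a surface antigen induced by interferon, was 644 against 319 CPM (wt) and 1035 against 455 CPM (Lcn2-ko) (log2 1.01 and 1.19). In the 8 wt cells with few markers of any other type its ratio was -1.68. After thinning to 2000 UMIs, Ly6a was found in 32.6% and 66.1% of Mrc1-low cells, against 34.3% and 38.1% of Mrc1-positive cells. In wt the share was thus not higher, and the top 5 Mrc1-low cells held 64.9% of its UMIs, against 32.5% in Lcn2-ko. Ly6a is also high in T cells, 54.3% and 59.2% of which held it after the same thinning. Nr4a3, an immediate-early nuclear receptor, stood at 542 against 261 CPM and at 554 against 248 CPM (log2 1.05 and 1.16), and was at -0.27 in the 8 wt cells with few markers of any other type. Dcstamp, which drives macrophage fusion, had ratios of 1.31 and 1.24 on 60 and 53 UMIs, and Ass1, an enzyme that rebuilds arginine, had 1.22 in both. The enzyme gene Qpct rested on 36 and 35 UMIs. Ly6i, a relative of Ly6a whose reads could be shared with near copies, was found in 4 and 10 cells.

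Between the libraries, Mrc1-low cells of the library labelled Lcn2-ko held more Nos2, Ccl24 and Plac8 and less Hspa1a, Hspa1b, Egr1, Ccl3 and Ccl4. Genes reaching 20 CPM in one or other library numbered 6248, of which 983 (15.7%) were higher in Lcn2-ko by 1.5-fold or more and 1048 (16.8%) lower by as much. Most of these rested on few UMIs: with a counting interval clear of no difference, 230 (3.68%) were higher and 246 (3.94%) lower. At 2-fold, 436 (6.98%) were higher and 490 (7.84%) lower. The median over all genes was -0.00 on the log2 scale, so the scaling was even. In Mrc1-positive cells, 519 of 6250 genes (8.3%) passed 1.5-fold upward and 551 (8.82%) downward.

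Nos2, the inducible nitric oxide synthase of activated macrophages (mm10 chr11:78920787-78960254), had the highest ratio among genes that reached both 50 CPM in a library and a total of 50 UMIs. It gave 27 UMIs in wt and 132 in Lcn2-ko, or 83.5 and 367 CPM (log2 2.14, interval 1.53 to 2.79). The UMIs sat in 12 of 48 and 15 of 66 cells, and the top 5 cells held 74.1% and 86.4% of them, so much of the difference lay in a few strong cells. After thinning, 6.52% and 14.3% of cells held Nos2, against 3.24% and 4.93% of T cells. Mrc1-positive cells showed a ratio of the same sign, with 72.2 and 255 CPM (log2 1.82). Arg1, which competes with Nos2 for arginine, was found in 6 and 12 cells at 210 and 301 CPM.

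Ccl24, an eotaxin made by alternatively activated macrophages, gave 29 UMIs in wt and 118 in Lcn2-ko, or 89.7 and 328 CPM (log2 1.87, interval 1.28 to 2.51). It was found in 8 of 48 and 21 of 66 cells, and after thinning in 6.52% and 25% of them, against 0.484% and 0.849% of T cells. Mrc1-positive cells held more of it in both libraries, 279 and 542 CPM. Il10, an inhibitory cytokine, gave 16 and 62 UMIs in 6 and 11 cells (log2 1.80). C3, the central complement component, gave 20 and 64 UMIs in 15 and 28 cells (log2 1.53). Slc7a2, an arginine transporter, gave 31 and 87 UMIs (log2 1.34) and stood at 161 and 212 CPM in Mrc1-positive cells. The antioxidant enzyme Srxn1 (15 and 56 UMIs), the signalling adaptor Traf3 (13 and 44), the vitamin D receptor Vdr (24 and 69), the p53 antagonist Mdm2 (28 and 79) and the costimulatory receptor Tnfrsf9 (33 and 93) were also among the 12 highest. In the 8 and 18 cells with few markers of any other type, Nos2 was at 3.96, Ccl24 at 0.64, C3 at 0.37 and Slc7a2 at 0.11. There Traf3, Vdr, Mdm2 and Tnfrsf9 were negative, at -0.80, -0.40, -0.47 and -2.21. Traf3 had the same value there as Ly6c2, Gdf15 and Ass1, so small counts or the floor of 3 counts lie behind it. The UMIs of these genes in so few cells are not given, so the signs do not show a reversal.

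Plac8 and Ly6c2, both on the list of monocyte markers, were higher in the library labelled Lcn2-ko. Plac8 gave 50 and 155 UMIs in 18 and 28 cells (log2 1.48) and Ly6c2 25 and 74 UMIs in 10 and 18 cells (log2 1.41). Ly6c2 has a near-identical copy, Ly6c1, so the split of its reads is uncertain, and it was at -0.80 in the 8 and 18 cells with few markers of any other type. Of 8 monocyte markers measured, 3 were at least 1.5-fold higher and 1 lower, against 15.7% and 16.8% of all genes, with a median of 0.22. Plac8 and Ly6c2 are expressed by T cells as well, and after thinning 20.5% and 28.7% of T cells held Plac8, against 17.4% and 33.9% of Mrc1-low cells. Lyz2, the lysozyme of macrophages and monocytes, was at 1603 and 2786 CPM in wt and Lcn2-ko (log2 0.80), and in Mrc1-positive cells at 4225 and 4535 CPM. Ly6a stood at 644 and 1035 CPM (log2 0.69), in 26 of 48 and 49 of 66 cells, and after thinning 32.6% and 66.1% of cells held it, against 54.3% and 59.2% of T cells. Cxcl9 was 647 and 891 CPM (log2 0.46).

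Fcgr4 and Fcgr2b were higher in the library labelled Lcn2-ko. Fcgr4, an activating receptor for IgG, was at 167 and 337 CPM in wt and Lcn2-ko (log2 1.01, interval 0.537 to 1.502), and the inhibitory receptor Fcgr2b at 972 and 1489 CPM (log2 0.62, 0.41 to 0.82). Of 9 Fc receptor genes measured, these 2 were at least 1.5-fold higher and none was lower, near the 15.7% of all genes that were higher. Without the cells that held S100a8, S100a9 and Retnlg 2 were higher and 2 lower, and the share of all genes there is not given. Of 15 complement genes measured, 5 were higher and none lower, with a median of 0.26. The C1q genes themselves were near each other between libraries, C1qa at 269 and 303 CPM, C1qb at 1844 and 2060 CPM and C1qc at 2284 and 2372 CPM.

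Some inducible heat shock genes, Hspa1a and Hspa1b foremost, were lower in the library labelled Lcn2-ko. Hspa1a and Hspa1b, near-identical neighbours on mm10 chromosome 17 whose reads can be split between them, encode the stress-induced Hsp70 chaperone. Hspa1a gave 368 UMIs in wt and 104 in Lcn2-ko, or 1139 and 289 CPM (log2 -1.98, interval -2.30 to -1.66), in 25 and 17 cells. Hspa1b stood at 814 and 234 CPM (log2 -1.80). Of 20 chaperone genes measured, 5 were at least 1.5-fold lower and 2 higher, not far from the 16.8% and 15.7% of all genes, with a median of -0.30. In the 8 and 18 cells with few markers of any other type Hspa1a was at -0.28 and Hspa1b at -0.75. Bag3 and Hsph1, co-chaperones of Hsp70, were at -1.30 and -1.25 and Dnajb1 at -0.86. Mrc1-positive cells had Hspa1a at 1280 and 454 CPM (log2 -1.5), and T cells showed a shift of the same sign, with Hspa1a in 28.4% of wt and 12% of Lcn2-ko T cells after thinning. Warm digestion is known to induce these genes, and with 1 library each the handling of a library and its label cannot be told apart.

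Egr1 and some other immediate-early genes, which answer growth factors and stress within minutes, were also lower. Egr1 gave 347 UMIs in wt and 153 in Lcn2-ko, or 1074 and 426 CPM (log2 -1.33, interval -1.62 to -1.06), in 36 and 33 cells. In Mrc1-positive cells it stood at 864 and 773 CPM (log2 -0.16), and the difference between these ratios was not tested. Jun stood at 1464 and 813 CPM (log2 -0.85), Zfp36, which shortens the life of cytokine messages, at 4932 and 3382 CPM (-0.54), and Klf6 at 2398 and 1695 CPM (-0.50). Of 20 measured, 5 were at least 1.5-fold lower, not far from the 16.8% of all genes, and none higher, with a median of -0.38. The intervals of 12 lay below no difference. The share of all genes with such an interval at any fold is not given. Counting intervals are narrower for abundant genes, and this list summed to 22617 CPM in wt. Without the cells that held S100a8, S100a9 and Retnlg, Egr1 was at -1.45 and the list's median at -0.33. As for the heat shock genes, the handling of a library and its label cannot be told apart here.

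Several chemokines for T cells and monocytes were lower. Ccl3 gave 569 UMIs in wt and 263 in Lcn2-ko, or 1761 and 732 CPM (log2 -1.27, interval -1.48 to -1.05). Ccl4, its neighbour on chromosome 11, stood at 3890 and 1987 CPM (log2 -0.97, -1.10 to -0.84) and was found in 82.6% and 58.9% of cells after thinning, 42 of 48 and 44 of 66 before it, against 25.8% and 21.4% of T cells. Ccl5 was 696 and 320 CPM (log2 -1.12), and Cxcl10 904 and 509 CPM (-0.83). Of 20 chemokines measured, 8 were at least 1.5-fold lower and 2 higher, against 16.8% and 15.7% of all genes, with a median of -0.52. Without the S100a8, S100a9 and Retnlg cells, 7 were lower and 8 higher and the median was 0.23, while Ccl3 was at -1.30 and Ccl4 at -1.31. That setting held 30 wt and 53 Lcn2-ko cells. The share of all genes past 1.5-fold in it is not given, so these counts have no background beside them. Cxcl2 was level, at 6996 and 6803 CPM. Mrc1-positive cells held 789584 (wt) and 861711 (Lcn2-ko) UMIs in all. Of these Ccl3 gave 816 and 641, Ccl4 2441 and 1403 and Cxcl10 1005 and 386. There 5 of 20 chemokines were lower and 2 higher, with a median of 0.05.

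Some of the lowest genes were those of other cell types, and some rested mainly on a single cell. S100a8, a granulocyte alarmin, gave 187 UMIs in 18 wt cells and 76 in 15 Lcn2-ko cells (log2 -1.45). Gdf15 (66 and 25 UMIs), Slfn4 (117 and 51) and Nudt4 (46 and 17) were at -1.55, -1.35 and -1.59, and without the S100a8, S100a9 and Retnlg cells at 0.63, -0.42 and -0.19. Of 10 neutrophil markers measured, 7 were at least 1.5-fold lower and none higher, against 16.8% and 15.7% of all genes. A wt cell of 15843 UMIs held 131 UMIs of tumour and stromal markers. It alone carried 40 of 53 Tm4sf1 UMIs, 34 of 42 Sparc UMIs, 55 of 73 Sod3 UMIs and 52 of 134 Actn1 UMIs. An Lcn2-ko cell with 68 UMIs of those markers held 12 of 13 Tm4sf1 UMIs. Without cells with 3 or more tumour or stromal UMIs, 8 in wt and 6 in Lcn2-ko, Sparc was at -0.35, Sod3 at 0.13 and Actn1 at -0.68, whereas Hspa1a was at -1.49 and Egr1 at -1.20. Tnfsf9, the ligand of Tnfrsf9, gave 73 and 24 UMIs in 16 and 19 cells (log2 -1.76).

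**Figure D3:**
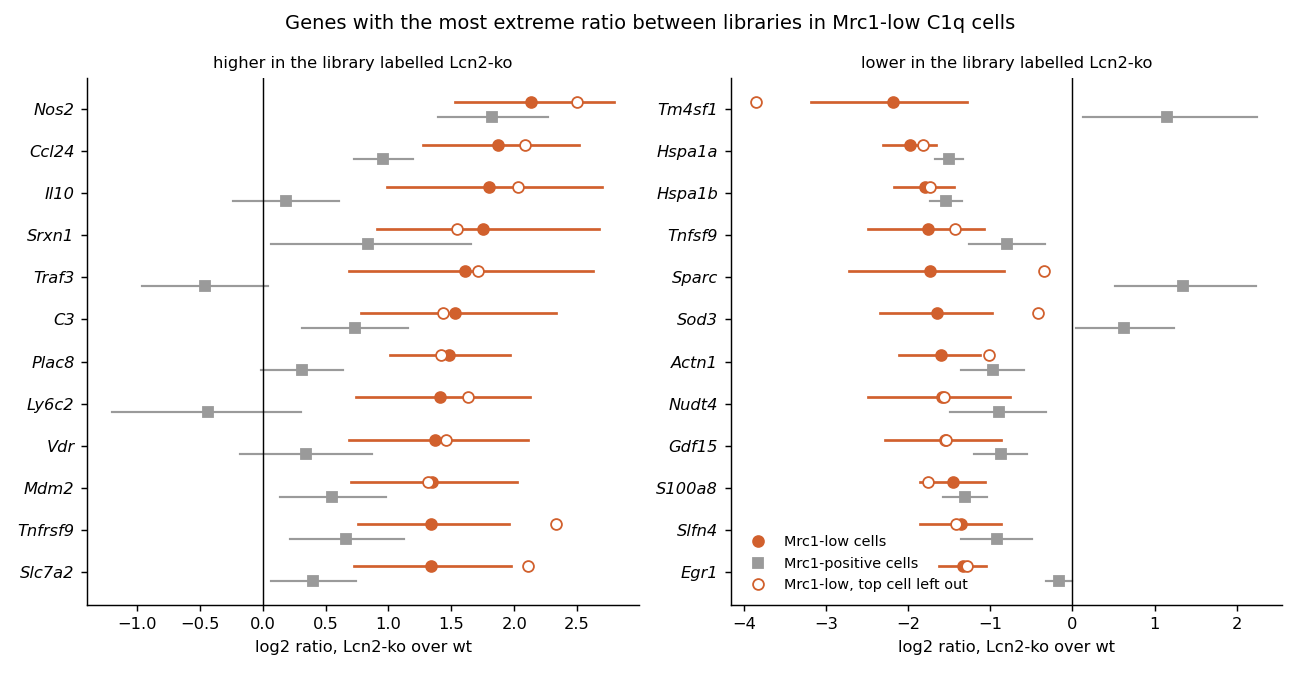
The log2 ratio of the library labelled Lcn2-ko over wt is drawn for the 12 highest and 12 lowest genes in Mrc1-low cells (filled circles) and for the same genes in Mrc1-positive cells (grey squares), with bars for the 95% counting interval; open circles leave out the cell with the most UMIs of the gene in each library. Nos2 (2.14 and 1.82) and Hspa1a (-1.98 and -1.5) have the same sign and like size in both populations, Egr1 is nearer 0 in Mrc1-positive cells (-1.33 and -0.16), and the open circles of Sparc and Sod3 lie near 0, at -0.35 and -0.42.

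Of all genes measured in Mrc1-low cells, 15.7% were at least 1.5-fold higher in Lcn2-ko and 16.8% lower. The type I interferon counts were near these shares both ways, and the MHC class I count was near the higher share. Cell cycle genes past 1.5-fold were lower in Lcn2-ko. Of 32 type I interferon genes measured, 5 were at least 1.5-fold higher in Lcn2-ko and 6 lower, with a median of -0.02. In Mrc1-positive cells 0 of 28 were higher and 11 lower, with a median of -0.40, against 8.3% and 8.82% of all genes there. In Mrc1-low cells Ifit2 (105 and 44.5 CPM, log2 -1.24) and Isg15 (477 and 264 CPM, -0.85) were lower, Ifitm3 was at 0.55 and Rsad2 at -0.07. Of 27 interferon gamma genes, 2 were higher and 3 lower, with a median of 0.18. No MHC class II gene of 12 measured was past 1.5-fold, and 4 of 22 MHC class I genes were higher and none lower. Of 29 hypoxia and glycolysis genes, 1, Ndrg1, was higher (282 and 598 CPM, log2 1.09) and 7 were lower, with a median of 0.06 and 3 intervals on either side of no difference. Their summed level was 9599 CPM in wt and 10430 CPM in Lcn2-ko, and in Mrc1-positive cells 9 of 28 were higher and none lower. Of 21 cell cycle genes, 8 were lower and none higher, on few UMIs each, with intervals clear of no difference for 2. Of 17 resident macrophage genes, Mrc1 included, 2 were higher and 6 lower, Maf among them at 198 and 125 CPM (log2 -0.66).

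Mrc1-low cells varied widely among themselves. Over 46 wt and 56 Lcn2-ko cells thinned to 2000 UMIs, the summed type I interferon list ran from 0 to 31 UMIs with a median of 7 in wt and from 0 to 33 with a median of 6.5 in Lcn2-ko. In Mrc1-positive cells the medians were 5 and 3. The resident macrophage list without Mrc1 had medians of 7 and 7 UMIs, against 12 and 14, and its highest Mrc1-low cell held 19 in wt and 26 in Lcn2-ko. MHC class II ran from 8 to 151 UMIs in wt and from 6 to 141 in Lcn2-ko. Chemokines ran from 4 to 123 and from 2 to 97. As a description over cells of 1 library, type I went with interferon gamma genes, with Spearman correlations of 0.52 in wt and 0.33 in Lcn2-ko, and resident genes with macrophage markers other than C1q, at 0.33 and 0.40. The cells share a library and were thinned to 1 depth. Nos2 was found in 12 of 48 and 15 of 66 cells, and 3 of the 8 wt and 5 of the 21 Lcn2-ko cells with Ccl24 also held Nos2.

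**Figure D4:**
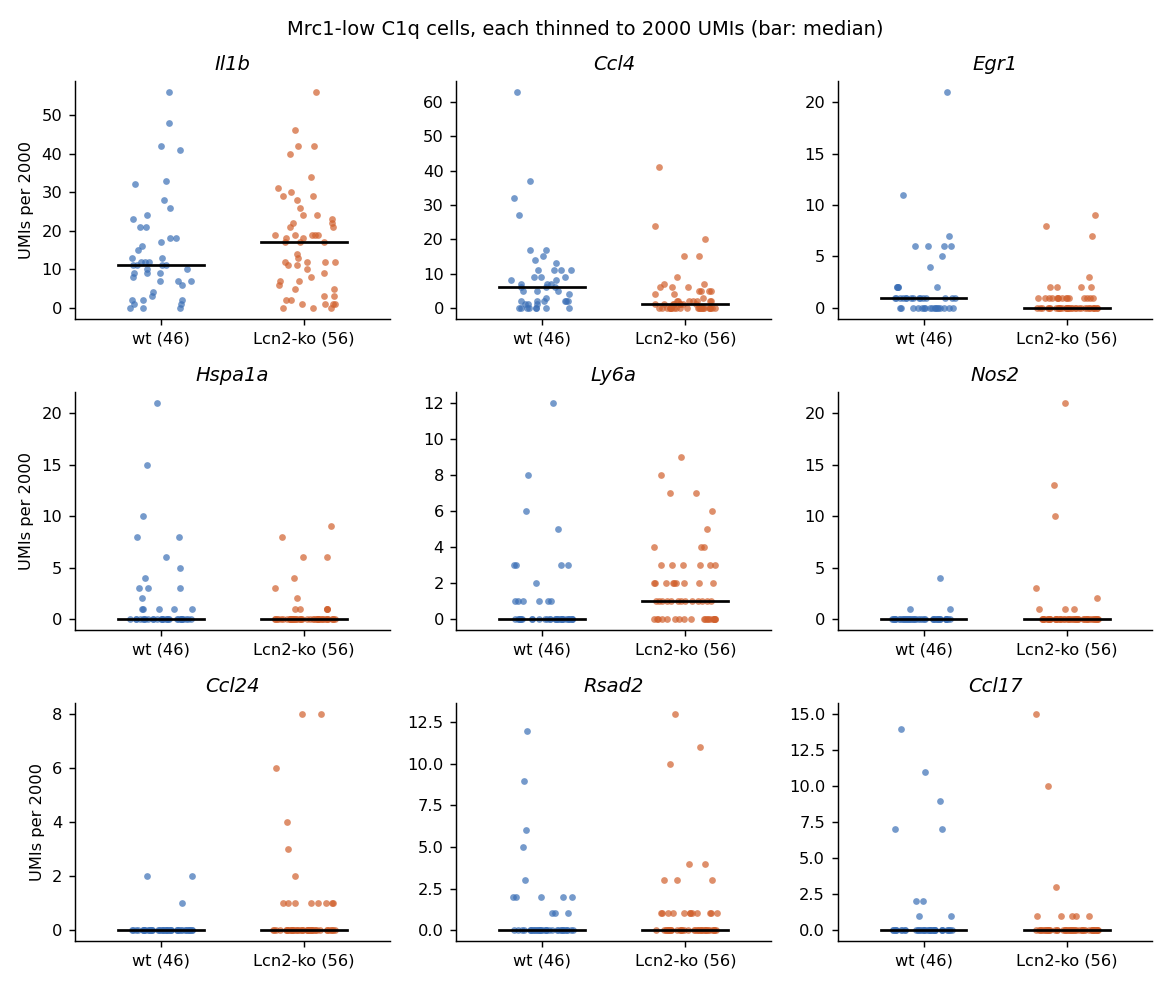
Each point is 1 Mrc1-low cell after thinning to 2000 UMIs, with the UMIs of 9 genes in 46 wt cells (blue) and 56 Lcn2-ko cells (orange); the bar is the median. Il1b is present in nearly all cells (medians 11 and 17), Ccl4 and Egr1 have lower medians in Lcn2-ko (6 and 1 for Ccl4, 1 and 0 for Egr1), and Nos2, Ccl24, Rsad2 and Ccl17 are at 0 in most cells of both libraries, Rsad2 being found in 13 wt and 20 Lcn2-ko cells.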

How the data were processed

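Each library was a matrix of raw UMI counts per gene and cell barcode over 31253 genes, as deposited by the authors. BD Rhapsody chemistry is given per the labels' protocols. Cell Ranger and mm10 are named per the submitters' processing notes, with no version or role. Counts of a population were summed per library and scaled to CPM; with 1 library per label no test was possible, and a gene was counted as different past 1.5-fold. Intervals at 95% were exact for shares and counts (conditional binomial for ratios, Newcombe for differences of shares), and a gene at 0 in one group was set at a floor of 3 counts. Per-cell values were thinned to 2000 UMIs, which left out 2 wt and 10 Lcn2-ko Mrc1-low cells. T cells for reference had 3 or more Cd3 UMIs and no C1q UMI.

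Scrublet called 0 doublets in either library, so it did not work here and no cell was dropped; leaving out the highest 4% of scores was an alternative. Genes were named by rule: the 12 highest and 12 lowest library ratios with at least 50 CPM and 50 UMIs, the 12 highest and 12 lowest against Mrc1-positive cells by the ratio nearer to 1, the 20 most abundant, and up to 4 of each list. Rule genes and mitochondrial, ribosomal, antigen receptor and predicted genes were left out. Other genes are named because a list's count holds them. One gene that the rule names is not reported here. The members and gene lists were chosen with earlier results of these data known. Leaving out cells with S100a8, S100a9 and Retnlg or with tumour markers, and a limit of 50 UMIs, were chosen after seeing the data. The ratio code was tested on simulated data. Coordinates are mm10; promoters are RefSeq GRCm38.p6. Python 3.11.15, numpy 2.4.6, scipy 1.17.1, pandas 2.3.3, scanpy 1.11.5 and matplotlib 3.10.9 were used.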

Additional observations from a re-analysis of the deposited data

Results flagged for a closer look

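Several genes had library ratios of opposite sign in the 2 C1q populations, with counting intervals clear of no difference in each; the difference itself was not tested. On the log2 scale of Lcn2-ko over wt, Tm4sf1 was at -2.18 in Mrc1-low and 1.15 in Mrc1-positive cells, Sparc at -1.74 and 1.34, Sod3 at -1.64 and 0.63, and Col1a1 at -0.61 and 1.59. A single wt cell with 131 UMIs of tumour and stromal markers held 40 of 53 Tm4sf1, 34 of 42 Sparc, 55 of 73 Sod3 and 63 of 85 Col1a1 UMIs. In Lcn2-ko, 1 Mrc1-low cell with 68 such UMIs held 12 of 13 Tm4sf1, 7 of 14 Sparc, 11 of 26 Sod3 and 37 of 62 Col1a1 UMIs. Tm4sf1 reversed under no alternative that gave it a ratio. The part of these cells in the ratios was not tested. Dnajb4, a co-chaperone, was at 1.2 and -0.73, and Psmb10, a subunit of the immunoproteasome, at 0.77 and -0.58. Actg1, a cytoplasmic actin, was at -0.09 and 0.09.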

How the results depend on the processing

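No paired analysis was possible because each label has 1 library. No library could be left out, and depth limits genes under 50 UMIs, where few cells decide a ratio. For named genes, a 10% mitochondrial limit and scaling by the median ratio kept 126 of 126 library ratios within their interval, while thinning to 2000 UMIs kept 78, moved 45 and reversed 3. The most changed when cells with 3 or more UMIs of another type's markers were left out: of 113 library ratios 32 were kept, 73 moved and 8 reversed, and of 39 ratios to Mrc1-positive cells 15 were kept, 17 moved and 7 reversed. The cause of the changes was not tested.

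With C1q at 20 UMIs or more, Mrc1-low cells were 0.363% of kept wt and 0.411% of kept Lcn2-ko cells, and 23.9% and 26.7% of C1q cells. With no Mrc1 UMI these were 0.324% and 0.530%, and 16.8% and 24%. Thinned before the Mrc1 limit, the shares of C1q cells were 75.9% and 73.9%. Leaving out cells with 3 or more UMIs of another type's markers left 8 wt and 18 Lcn2-ko Mrc1-low cells. It also cut the kept cells to 614 and 413, most other types being dropped by their own markers. The shares of kept cells, 1.30% and 4.36%, are over these smaller totals and cannot be set beside the main shares. Of 38 Lcn2-ko C1q cells left, 47.4% were Mrc1-low. Without S100a8, S100a9 and Retnlg cells the wt share was 0.434% of 6907 kept cells. Without tumour-marker cells the Lcn2-ko share was 1.13% of 5307 kept cells, again a smaller total.

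Genes past 1.5-fold between libraries numbered 1484 higher and 1728 lower after thinning, 151 and 142 at 100 CPM, 1921 and 2080 at 5 CPM, 173 and 151 with 50 UMIs, and 2037 lower without cells with another type's markers. Against Mrc1-positive cells, 520 were higher without those cells, 356 after thinning, 24 at 100 CPM, 467 at 5 CPM and 231 without S100a8, S100a9 and Retnlg cells; 45 were lower at 100 CPM and 578 at 5 CPM.

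Library ratios reversed in these cases. At 20 C1q UMIs, Sparc was 0.81, Sod3 0.73 and Col1a1 0.53; with no Mrc1 UMI, Sparc 0.083, Ifit2 0.25 and Col1a1 0.46; without the top Scrublet scores, Sparc 0.60, Sod3 0.33 and Col1a1 1.29. Without tumour-marker cells, Sod3 was 0.13 and Col1a1 0.58. Without S100a8, S100a9 and Retnlg cells, Gdf15 was 0.63, S100a8, which chose those cells, 0.016, Mmp9 0.17 and Acod1 0.40. After thinning, Maf was 0.0057, Cd36 -0.48 and Col1a1 1.11; as a mean over cells Col1a1 was 0.34; without the top cell, Col1a1 was 0.032 and Cd36 -0.000711. Without cells with another type's markers, Traf3 was -0.80, Ly6c2 -0.80, Vdr -0.40, Mdm2 -0.47, Tnfrsf9 -2.21, Cd63 0.31, Pvr -0.89 and Col1a1 0.66. These values rest on 8 wt and 18 Lcn2-ko cells, and a gene at 0 stood at 3 counts. In that setting the ratio to Mrc1-positive cells reversed for Ccl17 (-1.44), Nr4a3 (-0.27), Ly6a (-1.68), Hsd17b4 (0.017) and Ptgs1 (0.49) in wt and for Ifit3 (-1.09) and Ube2c (1.08) in Lcn2-ko. Ly6i was -0.93 in wt at 20 C1q UMIs.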

Other observations

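Many cells with 10 or more C1q UMIs lay outside the population through their Cd3 counts: 266 in wt and 267 in Lcn2-ko, of which 99 and 89 held fewer than 2 Mrc1 UMIs. Their median depth was 11200 and 11103 UMIs, Lck, a T cell kinase, was found in 77.8% and 77.2% of them, and Apoe stood at 999 and 863 CPM. Another 53 and 45 cells were left out for Xcr1 or Clec9a alone, at median depths of 11189 and 10388 UMIs. Il12b, a subunit of interleukin-12, gave 37 UMIs in 4 wt Mrc1-low cells and 5 UMIs in 3 Lcn2-ko cells.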
